A study of Mus musculus with 6 samples.

Results

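The miR-125 strands described here are the guide strands of the paralogs miR-125a and miR-125b (miR-125a-5p and miR-125b-5p) and the passenger strand of the miR-125b-2 hairpin (miR-125b-2-3p). They are 3 of the 1927 mature microRNAs (miRNAs) in the count table, taken by name, and all 3 passed the filter on low counts that left 145 miRNAs to test. The libraries came from extracellular vesicles, the membrane-bound particles that cells shed, of crushed tibias and femurs of untreated male mice of the Swiss-CD1 strain, 8 weeks old; epiphyses had been cut off and marrow removed by a short spin. Large vesicles (lEVs, 3 libraries) were pelleted at 10000 g, and small vesicles (sEVs, 3 libraries) were taken at 100000 g from the top of a 30% sucrose cushion. Per the labels' protocols the fractions were taken in turn from the same bone supernatant, and vesicle size, spin and cushion differ together between them and cannot be told apart. The labels do not say whether animals were pooled or whether replicates were separate preparations, so p-values reflect the spread among these libraries alone, which may be technical.

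miRNAs are cut from a hairpin whose arms form a duplex. The guide arm is loaded into Argonaute and silences messenger RNAs that pair with its seed, while the passenger arm is mostly degraded. The miR-125 family is the vertebrate counterpart of lin-4, the first miRNA described, and it is abundant in mesenchymal cells and in blood stem cells. Forced miR-125b has been reported to hold back osteoblast differentiation, and each miR-125 hairpin has miR-99/100 and let-7 family hairpins as neighbours.

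The mature sequences (RefSeq, GRCm38.p6, 5′ to 3′, seed of bases 2 to 8 in capitals) are shown because seed and arm set the groups used below: the 3 guides share a seed, and the 3 passenger strands do not.
miR-125b-5p: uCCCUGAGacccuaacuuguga
miR-125a-5p: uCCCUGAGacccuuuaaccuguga
miR-351-5p: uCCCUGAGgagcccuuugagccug
miR-125b-2-3p: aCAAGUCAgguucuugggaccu
miR-125b-1-3p: aCGGGUUAggcucuugggagcu
miR-125a-3p: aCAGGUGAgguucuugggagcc

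The guides of 22 bases (miR-125b-5p) and 24 bases (miR-125a-5p) share their first 13 and last 5 bases and lie 3 single-base edits apart. Past the 8 bases at its start, miR-351-5p shares no longer run with either. No mature sequence in the RefSeq table shared a run of more than 13 bases with a guide or more than 12 bases with miR-125b-2-3p, and 3 of the 3 miRNAs matched that table. miR-125b-5p is cut from 2 hairpins, Mir125b-1 (chr9:41581926-41582002, plus strand) and Mir125b-2 (chr16:77646273-77646343, plus strand), and its counts cannot be divided between them. By GENCODE M21 on GRCm38, Mir125b-1 lies in introns of the noncoding genes 3110039I08Rik and Gm49317 and overlaps an exon of Gm28119, a gene annotated as sense intronic. Mir125b-2 lies in an intron of the noncoding host gene Mir99ahg, and its 3′ end overlaps an exon of C130023A14Rik, a gene model of type TEC. The miR-125a hairpin (chr17:17830812-17830879, plus strand) overlaps an exon of the protein-coding gene Spaca6. In the RefSeq hairpins shown next, the guide and passenger arms are in capitals, to show how closely the arms of the paralogs correspond.
Mir125a: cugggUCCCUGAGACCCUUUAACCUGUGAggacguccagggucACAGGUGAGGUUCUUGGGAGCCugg
Mir125b-1: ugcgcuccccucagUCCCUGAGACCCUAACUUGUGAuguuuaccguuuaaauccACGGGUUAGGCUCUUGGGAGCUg

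The 6 libraries held between 47441 and 114331 counts, with the fewest in lEVs replicate 1. That library stood apart: the chi-square statistic over its degrees of freedom was 23.7 and 18.3 against the other lEVs libraries, and 2.35 between those. To a lesser degree sEVs replicate 1 also differed, at 4.78 and 7.02 against sEVs replicates 2 and 3, and 2.99 between those. The values of the 3 strands and the other results that lEVs replicate 1 moves are therefore also given without that library. Among 16 miRNAs typical of cell types, neural and hepatic ones included, 14 were above 0. Of these, 4 were higher in sEVs without overlap, 1 was higher in lEVs without overlap and 9 overlapped. Over all tested miRNAs, 22.1% were higher in sEVs without overlap (32 of 145). In CPM (library-scaled counts, with TMM factors), the endothelial miR-126a-3p ran from 58152 to 70394 in lEVs and from 73985 to 80744 in sEVs. The summed level of the 3 mesenchymal markers ran from 22633 to 27836 CPM in lEVs and from 35204 to 41558 CPM in sEVs. Most of that sum was miR-143-3p alone (17617 to 23916 CPM in lEVs and 29270 to 35776 CPM in sEVs), so it mainly follows 1 row. Among the 3, miR-143-3p and miR-199a-5p were higher in sEVs without overlap, and miR-214-3p overlapped. The lymphocyte marker miR-150-5p ran from 1013 to 1138 CPM in lEVs and from 1840 to 2236 CPM in sEVs. The 3 muscle markers went the other way when summed, from 20879 to 21952 CPM in lEVs and from 17347 to 20541 CPM in sEVs. Of them only the joined row miR-133a-3p/133b-3p was separated on its own. The range of miR-1a-3p lay higher in sEVs, with overlap (8895 to 13946 CPM in lEVs and 11233 to 15298 CPM in sEVs). Its 8895 CPM was that of lEVs replicate 1, and the other lEVs libraries, at 13946 and 13293 CPM, lay inside the sEVs range. In lEVs replicate 1, which stood apart, miR-206-3p was at 10328 CPM, against 4324 and 5567 CPM in the other lEVs libraries. The erythroid (3 markers), myeloid and cartilage markers overlapped between the fractions. Of the neural markers, miR-124-3p was listed at 0 in every library and miR-9-5p had at most 5 counts, in 5 of 6 libraries; the hepatic miR-122-5p was listed at 0. The part of differing cell sources in the results was not tested, and in such bulk samples more vesicles of 1 source and more of the miRNA per vesicle cannot be told apart.

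miR-125b-5p, the most abundant of the 3 strands, had 1229, 3433 and 2930 counts in lEVs replicates 1, 2 and 3 and 5688, 6619 and 7776 counts in sEVs replicates 1, 2 and 3. Scaled to CPM, the lEVs values were 30367, 31518 and 30262 and the sEVs values 78494, 69974 and 69810. The fractions did not overlap. The 3 lEVs libraries lay close together on this scale, but as shares of all counts they were 2.59%, 3.71% and 3.38%, with replicate 1 the lowest, against 7.54%, 6.66% and 6.80% in sEVs. It ranked 8th, 8th and 9th among all miRNAs in the lEVs libraries and 5th in each sEVs library. The level in sEVs was 2.37 times that in lEVs (log2 fold change 1.24 with an SE of 0.12; edgeR's quasi-likelihood test, Benjamini-Hochberg adjusted p = 0.000534), and without lEVs replicate 1 the log2 fold change was 1.23 (adjusted p = 3.1e-09).

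miR-125a-5p, the paralog guide, had 832, 1587 and 1380 counts in lEVs replicates 1, 2 and 3 and 3212, 3693 and 4238 counts in those of sEVs. Scaled to CPM, the lEVs values were 20557, 14570 and 14253 and the sEVs values 44326, 39041 and 38047. Again the 3 sEVs libraries lay above the 3 lEVs libraries, of which replicate 1 was the highest. As shares of all counts the lEVs values were close, at 1.75%, 1.72% and 1.59%, against 4.26%, 3.72% and 3.71% in sEVs. The higher CPM of lEVs replicate 1 came with a TMM factor of 0.853, against 1.18 and 1.12 for lEVs replicates 2 and 3. miR-125a-5p ranked 13th in each lEVs library and 8th in each sEVs library. Its level in sEVs was 2.46 times that in lEVs (edgeR log2 fold change 1.30 with an SE of 0.17, adjusted p = 0.00184), and without lEVs replicate 1 the log2 fold change was 1.48 (edgeR adjusted p = 2.0e-09).

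miR-125b-2-3p, the passenger strand, was scarce, with 7, 18 and 13 counts in lEVs replicates 1, 2 and 3 and 6, 30 and 35 counts in those of sEVs. Scaled to CPM, the lEVs values were 173, 165 and 134 and the sEVs values 82.8, 317 and 314. The fractions overlapped: sEVs replicate 1 was the lowest of all 6 libraries, and sEVs replicates 2 and 3 were the highest. The difference did not pass the test (edgeR log2 fold change 0.67 with an SE of 0.46, adjusted p = 0.309). Without sEVs replicate 1 it did (edgeR log2 fold change 1.05 with an SE of 0.26, adjusted p = 0.0413), so this call rested on 1 library, in which the strand had 6 counts. With lEVs replicate 1 left out it did not pass (log2 fold change 0.71; edgeR adjusted p = 0.210).

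Thus 2 of the 3 strands rose in sEVs, where 8.28% of all tested miRNAs were called higher in sEVs (12 of 145) and 17.2% were called in either direction (25 of 145). The groups did not overlap, with sEVs higher, for 2 of the 3 strands and for 22.1% of the tested miRNAs. The number of calls depended on single libraries: without lEVs replicate 1 there were 52 (29 higher in sEVs), and without lEVs replicate 3 there were 16 (8 higher in sEVs). The guides were called in both. Scaling by library totals gave 35 calls (11 higher in sEVs and 24 lower), and DESeq2 gave 37 (19 higher and 18 lower). The 3 strands were chosen with these results in view, so the shares describe them and do not test them.

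**Figure D1:**
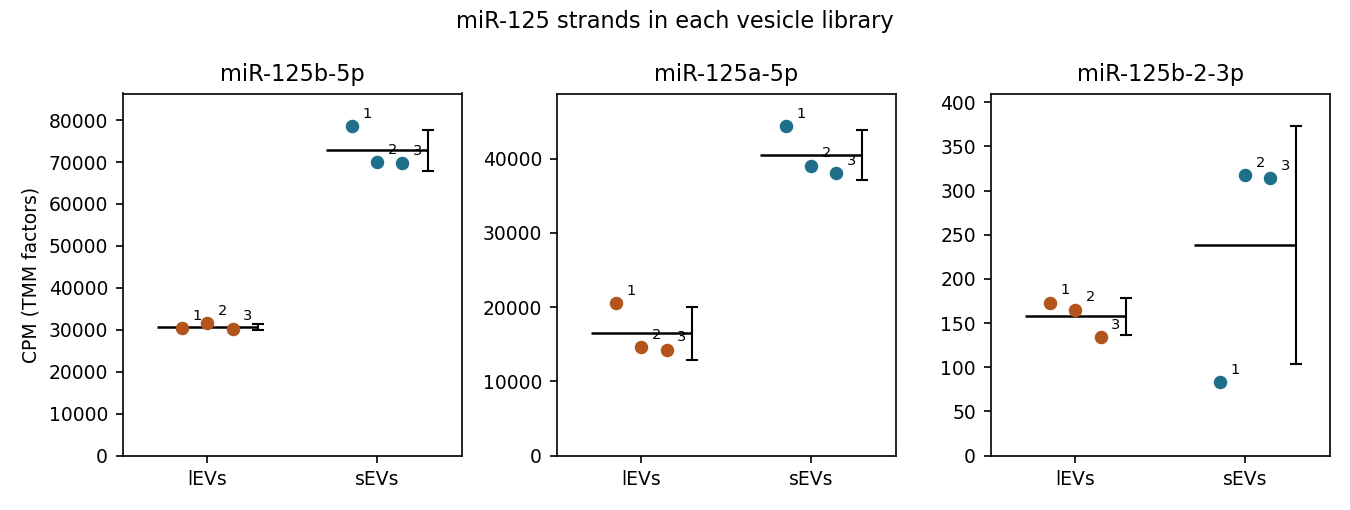
CPM with TMM factors (vertical axes, each from 0) of miR-125b-5p, miR-125a-5p and miR-125b-2-3p in the 3 lEVs and 3 sEVs libraries; points are libraries labelled by replicate number, horizontal lines are means and the bars beside them are ± 1 SD (n = 3). Both guides are separated between the fractions, while sEVs replicate 1 of the passenger strand lies at 82.8 CPM, below all lEVs libraries.

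Together the 3 strands took 4.36% of the counts of lEVs replicate 1 (95% Wilson interval 4.18 to 4.55%), 5.45% of replicate 2 (5.30 to 5.59%) and 4.99% of replicate 3 (4.85 to 5.14%). In sEVs they took 11.8% (11.6 to 12.0%), 10.4% (10.2 to 10.6%) and 10.5% (10.4 to 10.7%) in the same order. These intervals cover counting error only, and the spread between replicates of a fraction is wider than they are. The mean share was 10.9% ± 0.766 for sEVs against 4.93% ± 0.546 for lEVs (SD, n = 3 each), a difference of 5.98 percentage points (exact two-sided permutation p = 0.1, the smallest that 3 against 3 libraries allow). Leaving out lEVs replicate 1 gave a difference of 5.70 percentage points.

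The guides had the largest gains in share of any miRNA. Across the 156 miRNAs whose mean share of a library was higher in sEVs than in lEVs, the gains added up to 12.3 percentage points, and the 3 strands held 48.7% of that sum (46.5% without lEVs replicate 1). miR-125b-5p had the largest gain of all miRNAs (3.77 points) and miR-125a-5p the second largest (2.21 points). The third, miR-143-3p, a smooth muscle and fibroblast miRNA, gained 0.958 points. Of the 18 tested miRNAs with a mean of at least 10000 CPM, miR-125a-5p and miR-125b-5p had the highest log2 fold changes, followed by miR-143-3p at 0.65, and the lowest was that of let-7i-5p at -0.73. The median of these 18 was 0.17, against -0.04 for all tested miRNAs. Without lEVs replicate 1 the guides were still first in both orders, with gains of 3.45 points (miR-125b-5p) and 2.24 points (miR-125a-5p), but the third places went to let-7c-5p for the gain (1.67 points) and to let-7b-5p for the log2 fold change (0.59). This comparison was made after the values were seen and carries no test of its own.

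**Figure D2:**
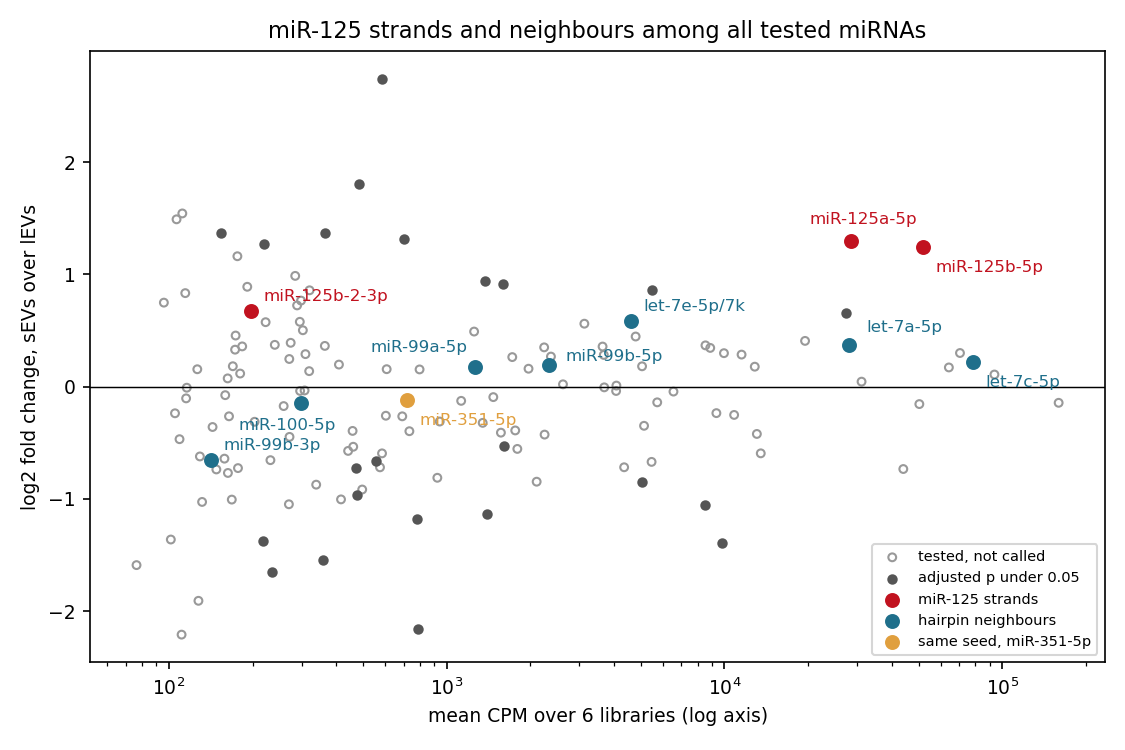
Log2 fold change of sEVs over lEVs (vertical axis) against mean CPM over the 6 libraries (horizontal log axis) for the 145 tested miRNAs; filled grey points have an edgeR adjusted p under 0.05, and colours mark the miR-125 strands, the tested neighbours of their hairpins and miR-351-5p. Both guides lie at the upper right, at 1.24 and 1.30, while the neighbours lie between -0.65 and 0.58.

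The proportion of the guides to each other did not differ between the fractions beyond the spread of the replicates. miR-125a-5p made up 40.4% of the counts of both guides in lEVs replicate 1 (95% Wilson interval 38.3 to 42.5%), 31.6% in replicate 2 (30.3 to 32.9%) and 32.0% in replicate 3 (30.6 to 33.4%). In sEVs it made up 36.1% (35.1 to 37.1%), 35.8% (34.9 to 36.7%) and 35.3% (34.4 to 36.1%). The sEVs values thus lay within the range of the lEVs values, whose spread came from replicate 1. The log2 ratio of miR-125a-5p to miR-125b-5p was -0.85 ± 0.026 for sEVs and -0.92 ± 0.31 for lEVs (SD, n = 3 each; difference 0.073, exact two-sided permutation p = 0.9; adjusted p = 0.9 over 9 ratios). Without lEVs replicate 1 the difference was 0.25 and the fractions no longer overlapped, and without lEVs replicate 2 or 3 its sign turned (-0.023 and -0.0093). No difference in shift between the paralogs was detectable with these libraries, which does not show that they move alike.

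The passenger strand was compared with its guide within each library, which needs no scaling between libraries. miR-125b-2-3p made up 0.566%, 0.522% and 0.442% of the counts of passenger plus guide in lEVs replicates 1, 2 and 3 (95% Wilson intervals 0.275 to 1.16%, 0.330 to 0.823% and 0.258 to 0.754%). In sEVs the shares were 0.105%, 0.451% and 0.448% (0.0483 to 0.230%, 0.316 to 0.643% and 0.322 to 0.623%). sEVs replicate 1 was far below the other 5 libraries, and the interval of its share did not reach those of the others, whereas the other sEVs libraries lay beside lEVs replicate 3. With 1 count added to each strand, the log2 ratio of passenger to guide was -8.39 ± 1.11 for sEVs and -7.49 ± 0.22 for lEVs (SD, n = 3 each; difference -0.90, exact two-sided permutation p = 0.1; adjusted p = 0.113 over 9 ratios). With no count added the fractions overlapped (difference -0.87, exact permutation p = 0.3), and without sEVs replicate 1 the difference fell to -0.26. Leaving out lEVs replicate 1 gave -0.78.

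**Figure D3:**
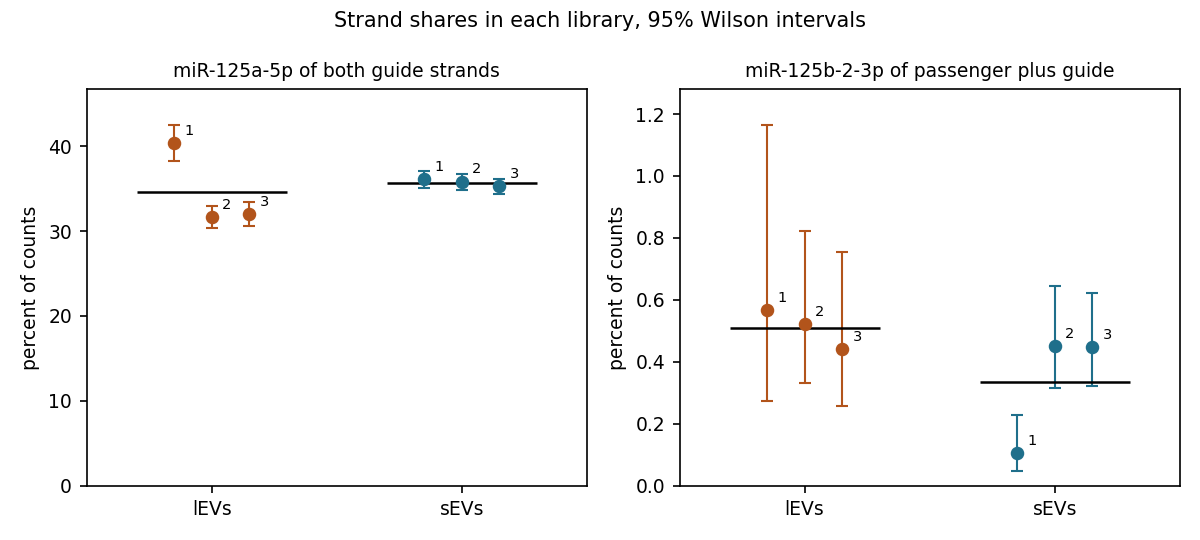
Percent of counts (vertical axes, from 0) that miR-125a-5p made up of both guides and that miR-125b-2-3p made up of passenger plus guide, per library; bars are 95% Wilson intervals and horizontal lines are means of 3 libraries. The miR-125a-5p share lies between 35.3% and 36.1% in sEVs, inside the lEVs range, and the passenger share is lowest in sEVs replicate 1, at 0.105%.

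The passenger strands of the other miR-125 hairpins were nearly absent. miR-125b-1-3p was listed in 1 library (4 counts in sEVs replicate 2) and miR-125a-3p in 1 library (3 counts in sEVs replicate 3), against 109 counts of miR-125b-2-3p over the 6 libraries. The table holds no value of 1, so a listed 0 could hide a single count, and zeros give no upper limit here. Neither strand was tested. How the counts of miR-125b-5p divide between its hairpins is not measured by this.

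Of the 5 rows of the table whose mature sequence has the seed CCCUGAG, the other 3 were miR-351-5p, miR-6367 and miR-6394, and the last 2 were listed at 0 in all libraries. miR-351-5p, from an X-linked cluster, had 40, 74 and 60 counts in lEVs replicates 1, 2 and 3 and 53, 71 and 62 in those of sEVs. This came to 762 ± 198 CPM for lEVs and 680 ± 107 CPM for sEVs (SD, n = 3 each). The fractions overlapped (edgeR log2 fold change -0.12 with an SE of 0.22, adjusted p = 0.686), and the sign turned without lEVs replicate 1 (0.040). The ratio of miR-125b-5p to miR-351-5p ran from 30.7 to 48.8 in lEVs and from 93.2 to 125.4 in sEVs, without overlap (difference 1.39 on the log2 scale, exact two-sided permutation p = 0.1; adjusted p = 0.113 over 9 ratios). Without lEVs replicate 1 the difference was 1.18. The miR-125 guides held between 98.1% and 98.6% of the counts with this seed in lEVs and between 99.3% and 99.5% in sEVs.

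The list of neighbours held 15 rows: 12 from the miR-99/100 and let-7 hairpins beside those of miR-125, the passenger strands miR-125b-1-3p and miR-125a-3p described above, and the joined row let-7a-1-3p/7c-2-3p, from hairpins elsewhere. Of the 12, 9 were above 0 in some library and 7 were tested, and no other row of the list was tested. None of the 7 passed the test in edgeR, where 17.2% of all tested miRNAs did (25 of 145). An unadjusted edgeR p under 0.05 was seen for 2 of the 7, and for at least 50 of all 145 tested miRNAs. Of these, let-7a-5p ranked 50th by p, at 0.041 in edgeR. Their median log2 fold change was 0.19, against -0.04 for all tested miRNAs. DESeq2 called 2 of the 7 (let-7a-5p and let-7e-5p/7k) and limma voom 0, where they called 37 and 29 of all 145. When lEVs replicate 1 was left out, edgeR called 3, the 3 let-7 rows, all higher in sEVs. In that setting it called 52 of all 151 tested miRNAs, 29 of them higher in sEVs. None of the 13 alternative settings called miR-99a-5p, miR-99b-5p, miR-99b-3p or miR-100-5p.

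On chromosome 17 the 3 hairpins are closest: Mirlet7e ends 368 bases and Mir99b 555 bases before the start of Mir125a. miR-99b-5p, whose family is known to target Mtor, had 106, 225 and 183 counts in lEVs replicates 1, 2 and 3 and 186, 227 and 275 in those of sEVs (edgeR log2 fold change 0.19 with an SE of 0.15, adjusted p = 0.362). miR-125a-5p was 7.05 to 7.85 times as abundant as miR-99b-5p in lEVs and 15.4 to 17.3 times in sEVs. The fractions did not overlap in this ratio, whose replicates differed little (log2 ratio 2.90 ± 0.078 for lEVs and 4.03 ± 0.082 for sEVs; SD, n = 3 each; difference 1.12, exact two-sided permutation p = 0.1; adjusted p = 0.113 over 9 ratios). The joined row let-7e-5p/7k differed by 0.58 on the log2 scale (with an SE of 0.21; adjusted p = 0.0844 in edgeR), and the log2 ratio of miR-125a-5p to it was higher in sEVs by 0.72 (exact permutation p = 0.1; adjusted p = 0.113 over 9 ratios). Without lEVs replicate 1 these ratios differed by 1.16 and 0.66, let-7e-5p/7k itself differed by 0.82 and passed (adjusted p = 0.000119 in edgeR), and miR-99b-5p differed by 0.31 and did not (adjusted p = 0.0969 in edgeR). The passenger strand miR-99b-3p, with 5 to 17 counts a library, differed by -0.65 on the log2 scale (with an SE of 0.35; adjusted p = 0.196 in edgeR).

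On chromosomes 16 and 9 the spacing is wider. Mirlet7c-1 and Mir99a end 46523 and 47273 bases before Mir125b-2, and Mirlet7a-2 and Mir100 end 45115 and 50422 bases before Mir125b-1. The level of miR-99a-5p was 1169 ± 228 CPM for lEVs and 1353 ± 167 CPM for sEVs (SD, n = 3 each), a log2 fold change of 0.18 with an adjusted p of 0.462 in edgeR (0.044 without lEVs replicate 1). The difference of miR-100-5p, with 15 to 34 counts a library, was -0.14 on the log2 scale (with an SE of 0.26; adjusted p = 0.690 in edgeR). The abundant let-7c-5p and let-7a-5p, members of the family that opposes Lin28 and cell proliferation, differed by 0.22 and 0.37 on the log2 scale without passing the test (adjusted p = 0.509 and 0.120 in edgeR). Without lEVs replicate 1 the differences were 0.58 for let-7c-5p (adjusted p = 3.1e-05 in edgeR) and 0.53 for let-7a-5p (adjusted p = 0.000181 in edgeR), both passing. For let-7c-5p the difference was 0.035 without lEVs replicate 2 and 0.056 without lEVs replicate 3. Both are also cut from hairpins elsewhere, so their counts do not follow these clusters alone. The log2 ratio of miR-125b-5p was higher in sEVs by 1.02 to miR-99a-5p, by 0.96 to let-7c-5p, by 1.44 to miR-100-5p and by 0.86 to let-7a-5p. In each of these 4 ratios the fractions did not overlap (exact two-sided permutation p = 0.1 each; adjusted p = 0.113 over 9 ratios). The 4 differences were 1.18, 0.65, 1.32 and 0.70 without lEVs replicate 1. In that library let-7c-5p stood at 104665 CPM, against 55756 and 56754 CPM in the other lEVs libraries.

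**Figure D4:**
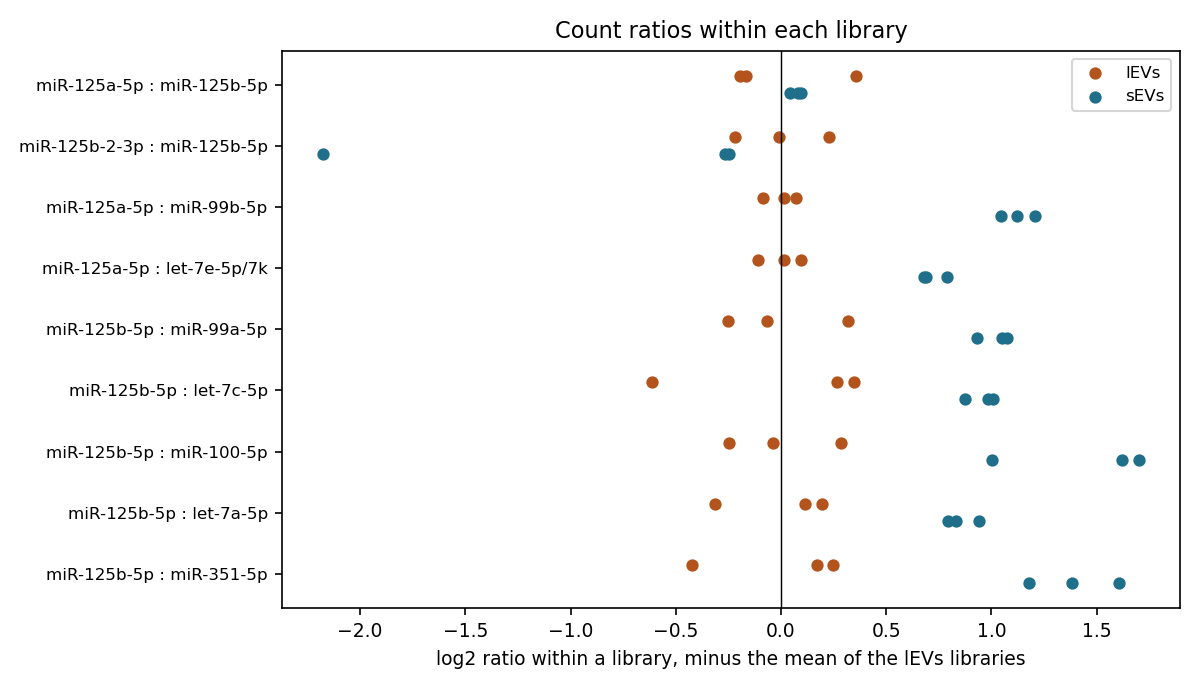
Log2 count ratios within each library, less the mean of the 3 lEVs libraries (horizontal axis), for 9 pairs of miRNAs (rows); points are libraries, lEVs in brown and sEVs in blue. The ratio of the 2 guides overlaps between the fractions, and the 7 ratios of a guide to a hairpin neighbour or to miR-351-5p are higher in all 3 sEVs libraries. Both guides are higher in all 3 sEVs libraries on their own, so these 7 ratios partly restate that difference.

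Apart from hairpin and seed, the libraries could be asked which other miRNAs followed the same profile. Profiles were log2 CPM values of each miRNA less its mean over the 6 libraries, and likeness was the root mean square difference in log2 units, over 142 miRNAs with a mean of at least 100 CPM. The closest to miR-125b-5p were miR-434-5p, from the imprinted Dlk1-Dio3 locus (0.17), miR-125a-5p (0.18), the lymphocyte miRNA miR-150-5p (0.19), the joined row miR-23a-3p/23b-3p (0.20) and miR-10b-5p, from the Hoxd cluster (0.22). By the same measure miR-125b-5p was the closest to miR-125a-5p. The passenger strand miR-125b-2-3p stood 80th from miR-125b-5p. Of the neighbours let-7e-5p/7k, from the hairpin beside Mir125a, came first from either guide, in 9th place from miR-125a-5p (0.37) and in 16th from miR-125b-5p (0.40). Over the 5 libraries without lEVs replicate 1, 3 of the 5 closest to miR-125b-5p were shared with those over 6. The closest was then miR-22-3p (0.096), followed by miR-125a-5p (0.12), while miR-125b-5p was again the closest to miR-125a-5p. This is a description over 6 libraries whose fractions differ, so any miRNA with a like difference between fractions is close.

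The guides hold the letters CCCU at bases 2 to 5 and again at bases 10 to 13, and miR-125b-2-3p holds neither CCCU nor GGAG, motifs named in the literature for miRNAs sorted into vesicles. Both motifs were searched on the mature strand only, and the guides hold no GGAG that CCCU could overlap. Of the 1660 rows with a RefSeq sequence, 11.4% held CCCU and 14% held GGAG. Of the 145 tested rows, 129 had such a sequence and were searched. The rest were not, so tested rows with either motif may be missing from the counts below. Among the 129, 11 held CCCU, and 4 of them were called (36.4%, against 17.1% of the 129). Both guides and miR-10b-5p, at 0.94 on the log2 scale (adjusted p = 0.00367 in edgeR), rose in sEVs. The fourth, miR-339-5p, fell, at -1.66 (adjusted p = 0.0154 in edgeR). Beside the guides, 2 of the 9 searched rows with CCCU were called (22.2%), 1 in each direction. The median log2 fold change of the 11 was -0.12, and without the guides it was -0.36, against -0.04 for all tested miRNAs. miR-351-5p holds CCCU at bases 2 to 5 and 12 to 15, and GGAG at bases 8 to 11, and did not pass. Of 11 tested rows with GGAG, edgeR called 0 higher in sEVs and 3 lower, where 8.97% of all tested miRNAs were called lower. An unadjusted edgeR p under 0.05 was seen for 5 of the 11, and for at least 50 of all 145 tested miRNAs. DESeq2 called 1 higher (let-7e-5p/7k), limma voom 0, and the median log2 fold change was -1.05. Without lEVs replicate 1, 6 of 13 tested rows with CCCU were called (4 higher in sEVs) and 4 of 11 with GGAG (let-7e-5p/7k higher and 3 lower). In that setting 52 of all 151 tested miRNAs were called, 29 higher in sEVs and 23 lower. The motifs are not separate classes, since 4 tested rows hold both. A match is a description of letters and says nothing of a protein bound there.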

How the data were processed

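Per the labels' protocols, miRNeasy-extracted RNA went into QIAseq miRNA libraries, which a MiSeq read from 1 end over 75 bases. The deposited values are whole-number counts per mature miRNA that the authors did not normalize. The submitters' processing notes name GRCm38, R 4.2.2 and DESeq2 1.38.2. Not given in the sources used here are the aligner, the use of strand, how near-identical miRNAs were assigned, and whether the counts are of reads or of molecular identifiers. Without strand, reads of a hairpin and of an antisense transcript could not be told apart.

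Columns were matched to libraries by their descriptions and grouped by sample title. The test was edgeR's quasi-likelihood test (edgeR 4.0.16, R 4.3.3) with TMM factors and filterByExpr (minimum count 10, minimum total 15), adjusted by Benjamini-Hochberg over the 145 rows tested and called at 0.05. The SE is the absolute log2 fold change over the square root of F. Log2 CPM used a prior count of 2. TMM factors ran from 0.853 to 1.18. Single values were compared by exact two-sided permutation tests (scipy 1.17.1). Chi-square statistics between replicates, over their degrees of freedom, lay between 2.35 and 23.7, above sampling noise. Scripts were tested on simulated data. Alternatives were DESeq2 1.42.0, limma voom (limma 3.58.1), 3 other scalings, no filter, the replicate block and each library left out.

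The 3 strands, the neighbour list and the motifs were chosen with earlier results of these data known. The sum of share gains, the class of abundant miRNAs, the ratios to neighbours and to miR-351-5p, and the passenger ratio with no added count, were added after seeing the values, as was leaving lEVs replicate 1 out of the share gains, the abundant class and the profiles. Named were the 3 strands, rows with their seed, the neighbour list and the 5 closest profiles; miR-143-3p, let-7b-5p, let-7i-5p, miR-22-3p and miR-339-5p were named after their values were seen.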

Additional observations from a re-analysis of the deposited data

How the results depend on the processing

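The calls of miR-125b-5p and miR-125a-5p held in all 13 alternatives, with log2 fold changes from 1.12 to 1.25 and from 1.19 to 1.48. With library totals for scaling they were 1.12 and 1.21, while the median of all tested miRNAs shifted from -0.04 to -0.18. miR-125b-2-3p stayed above 0 in all 13, between 0.37 and 1.05, and passed in 1 of them, without sEVs replicate 1. Over libraries left out, its log2 fold change ran from 0.37 to 1.05. The difference between the fractions in the log2 ratio of miR-125a-5p to miR-125b-5p ran from -0.023 to 0.25, turning sign without lEVs replicate 2 (-0.023) or 3 (-0.0093). The log2 fold change of miR-351-5p ran from -0.28 to 0.040, turning sign without lEVs replicate 1 (0.040).

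The number of miRNAs called was 25 of 145, 53 of 327 without the filter on low counts, and 16 to 52 with a library left out. For hairpin neighbours it was 0, 2 in DESeq2, 1 without the filter, 1 with the replicate block and 0 to 3 with a library left out. For miRNAs with CCCU in a RefSeq sequence it was 4, 8 without the filter, and 4 to 6 with a library left out. The labels do not say whether same-numbered libraries share a preparation. Their deviations from the fraction means correlated by -0.04, 0.02 and 0.35, and not every library correlated best with its own number, so the block was kept as an alternative. The replicate block gave 26 calls in all, with log2 fold changes of 1.24, 1.32 and 0.70 for miR-125b-5p, miR-125a-5p and miR-125b-2-3p. It called let-7e-5p/7k (adjusted p = 0.0399). The cause of these changes was not tested, apart from the filter, which changes how many rows are tested. With 3 pairs, an exact sign-flip test cannot go below 0.25, and 2 against 3 libraries cannot go below 0.2. Depth limits the scarce strands, such as miR-125b-2-3p with 6 to 35 counts a library.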
